A study of Rattus norvegicus with 12 samples.

Results

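The unfolded protein response and the integrated stress response were examined through a list of 35 genes in rat hippocampal cultures whose excitatory synaptic input had been blocked. Probes were assigned to the listed symbols through the RefSeq transcript named for each probe, and the brightest kept probe stood for a gene. In this way 33 of the 35 genes were measured, among 21250 genes or unnamed targets tested. Manf and Edem1 had no matched probe and are not analysed here. The 35 genes are 4 genes of stress sensing (the sensors and Xbp1), 4 transcription factors of the integrated stress response, 2 phosphatase subunits, 7 targets of the transcription factor ATF4, 14 chaperones and folding enzymes of the endoplasmic reticulum (ER) and 4 genes of ER-associated degradation.

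Cultures were prepared from Wistar rat embryos at embryonic day 18 and were used after 14 to 15 days in vitro. Blocked cultures received 50 µM GYKI-52466, an antagonist of AMPA-type glutamate receptors, together with 10 µM MK-801, a channel blocker of NMDA-type receptors, for 9 h or 26 h. Untreated cultures were collected for each time, and each of the 4 groups holds 3 independent cultures, 1 array each. Both drugs were always given together, so the effect of one cannot be told apart from that of the other, and the cultures hold glia as well as neurons. In such bulk RNA, fewer cells of a type and less RNA per cell cannot be told apart.

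The ER reads unfolded protein through 3 membrane sensors, which are encoded by Ern1 (IRE1), Eif2ak3 (PERK) and Atf6. IRE1 splices the mRNA of Xbp1, and XBP1 and the cleaved form of ATF6 drive ER chaperone genes through the ER stress response element (ERSE). PERK phosphorylates the translation factor eIF2alpha, as do kinases that sense amino acid shortage, heme or viral RNA; general translation falls, translation of ATF4 rises, and ATF4 drives amino acid synthesis and transport genes, Ddit3 (CHOP), Trib3 and Chac1. GADD34, encoded by Ppp1r15a, closes the loop by returning phosphatase to eIF2alpha. An array with 1 probe per gene does not separate spliced from unspliced Xbp1 and does not read phosphorylation.

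Of the promoters, 3 are printed because Creld2 and Ppp1r15a changed under blockade and Hspa5 is the classical reporter of the unfolded protein response. They are RefSeq entries on the rat build GRCr8, from 250 bases before to 50 bases after the annotated start, and 29 of the 35 genes had one. Ern1, Atf6, Atf3, Pdia3, Pdia6 and Manf had no entry. Capitals mark, on either strand, matches to ERSE (CCAAT, 9 bases, CCACG), to its closing part CCACG alone, and to the cyclic AMP response element TGACGTCA. The Hspa5 promoter (chr3:38452766-38453065, plus strand) holds a complete ERSE that begins 43 bases before the start. The Creld2 promoter (chr7:121789134-121789433, plus strand) holds 1 on the opposite strand, read as CGTGG and ATTGG, at 145 bases before the start. The Ppp1r15a promoter (chr1:105139547-105139846, minus strand) holds TGACGTCA at 66 bases before the start.
Hspa5: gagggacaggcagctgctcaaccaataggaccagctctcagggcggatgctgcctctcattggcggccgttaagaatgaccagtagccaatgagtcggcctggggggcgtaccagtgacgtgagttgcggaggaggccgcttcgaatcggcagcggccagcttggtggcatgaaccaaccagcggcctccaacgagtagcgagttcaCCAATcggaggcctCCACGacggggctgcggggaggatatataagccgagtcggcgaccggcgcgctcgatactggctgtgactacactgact
Creld2: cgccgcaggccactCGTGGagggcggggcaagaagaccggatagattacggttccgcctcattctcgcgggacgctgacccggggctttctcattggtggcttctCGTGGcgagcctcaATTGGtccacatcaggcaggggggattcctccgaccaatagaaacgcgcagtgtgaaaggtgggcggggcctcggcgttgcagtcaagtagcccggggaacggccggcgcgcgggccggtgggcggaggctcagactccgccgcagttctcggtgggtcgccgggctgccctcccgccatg
Ppp1r15a: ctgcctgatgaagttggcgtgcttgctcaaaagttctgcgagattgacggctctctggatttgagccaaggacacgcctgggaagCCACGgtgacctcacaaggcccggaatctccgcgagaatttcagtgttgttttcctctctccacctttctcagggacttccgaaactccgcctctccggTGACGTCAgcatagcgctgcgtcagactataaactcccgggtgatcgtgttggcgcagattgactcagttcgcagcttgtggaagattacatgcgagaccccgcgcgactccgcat

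A complete ERSE was found in 7 of the 29 promoters (24.1%), those of Calr, Canx, Creld2, Dnajc3, Hsp90b1, Hspa5 and Xbp1, against 22 of all 33469 rat promoters (0.0657%). The short site CCACG, which every ERSE contains, lay in 24 of 29 (82.8%, against 31.6% of all). The amino acid response motif TGATGNAA lay in 4 (Chac1, Herpud1, Ppp1r15b and Trib3; 13.8% against 3.98%). The motif TGACGTGG, which contains this site on its other strand, lay in Hyou1 alone (0.595% of all), and TGACGTCA in Ppp1r15a alone (1.83% of all). These are matches of letters in a short window, not measured binding.

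Well above background lay 77.6% to 86.8% of the spots on an array (42877 without controls), and arrays of the same group correlated at 0.985 to 0.994 across genes. The arrays lay on 6 slides scanned on 2 days. All arrays of a slide had the same replicate number, and within a day each number had its own slide. Day 1 held the untreated 9 h and the blocked 26 h arrays, and day 2 the blocked 9 h and the untreated 26 h arrays. The blockade effect averaged over both times and the time effect averaged over treatment are therefore balanced over slide and day, whereas the effect at a single time compares arrays of different days. The kept markers of neurons (7) and of astrocytes (8) were above background on all 12 arrays, as were 6 of 8 microglial markers. Tbr1 of the excitatory list and Cldn5 of the meningeal and vascular list were not above background. The blockade itself was visible in the immediate early genes, transcripts induced by synaptic activity. Averaged over both times, 11 of 14 were lower in blocked cultures and 0 higher (limma, adjusted p under 0.05). Of all targets, 2.13% were lower and 2.28% higher. The median effect of the 14 was -1.57 log2, against -0.02 over all targets. Levels are log2 signals from which the 75th percentile of each array was subtracted, so that 0 is the signal at that percentile; they compare arrays for 1 gene and not genes with each other.

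Averaged over both times, blockade lowered 5 of the 33 genes and raised 0. The 5 were Atf3, Ppp1r15a and the ER genes Creld2, Sdf2l1 and Pdia6. They stood in different arms of the response, while the sensors, CHOP, the ATF4 targets and the leading chaperones Hspa5 and Hsp90b1 did not pass the test. Of all targets tested, 4.41% passed at an adjusted p under 0.05 (limma, Benjamini-Hochberg over all targets), 2.13% lower and 2.28% higher. The members had 23 values below 0 and 10 above, with a median of -0.16 log2 against -0.02 over all targets. With the replicate number as a block, 9 were lower and 2 higher, against 6.55% and 6.28% of all targets.

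**Figure D1:**
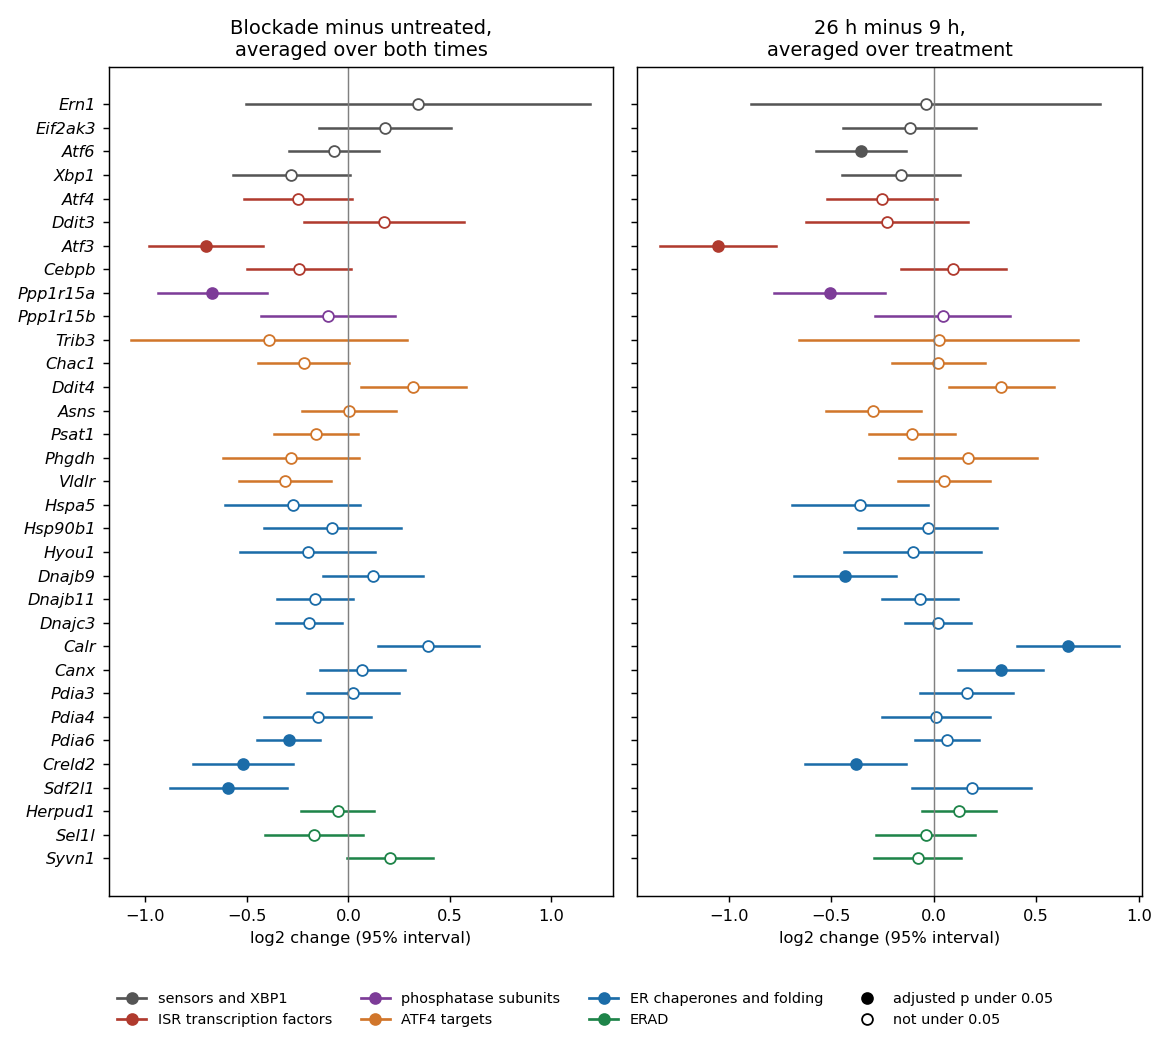
Effect of blockade averaged over both times (left) and of time averaged over treatment (right) for the 33 measured genes, as log2 change on the horizontal axis with its 95% interval; colours mark the role of the gene and filled points have an adjusted p under 0.05. On the left 5 genes lie below 0 with filled points, from Atf3 at -0.70 to Pdia6 at -0.29, and none above; Creld2, Sdf2l1 and Pdia6 lose the call when arrays are scaled by their median. On the right 5 filled points lie below 0 and 2 above.

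Among the transcription factors of the integrated stress response, Atf3, a stress-induced member of the ATF and CREB family that is also induced by neuronal activity, was the one that changed. Its level was 0.62, 0.35 and 0.53 on the untreated 9 h arrays and 0.20, -0.34 and -0.07 on the blocked 9 h arrays. At 26 h it was -0.25, -0.29 and -0.72 in untreated and -1.07, -1.49 and -1.20 in blocked cultures. Every blocked array lay below every untreated array of its time. The averaged effect was -0.70 log2 (SE 0.13), 1.63-fold lower, with an adjusted p of 0.0121. The call held when any 1 of the 12 arrays was left out, with adjusted p between 0.00894 and 0.0388, but not when replicate 1, 2 or 3 was left out of every group at once (0.0703, 0.313 and 0.0836).

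Atf4, the central transcription factor of the response, which is controlled largely at translation, was not called. It measured 3.75, 4.01 and 3.93 in untreated and 3.82, 3.51 and 3.65 in blocked cultures at 9 h, and 4.04, 3.54 and 3.38 against 3.57, 3.29 and 3.33 at 26 h. The groups overlapped at both times, and the averaged difference was -0.25 log2 (95% interval -0.52 to 0.02, adjusted p 0.352); the probe was saturated on 1 untreated 9 h array. Ddit3, which encodes the pro-apoptotic factor CHOP, measured 2.51, 2.43 and 2.08 in untreated and 3.02, 2.36 and 2.48 in blocked cultures at 9 h, and 2.64, 2.17 and 1.83 against 2.64, 2.21 and 2.01 at 26 h. Its arrays overlapped at both times, and the difference was 0.18 log2 (interval -0.22 to 0.57, adjusted p 0.735). Cebpb, a leucine zipper factor that acts with both, differed by -0.24 log2 (adjusted p 0.34).

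Of the phosphatase subunits, the inducible one fell. Ppp1r15a measured 0.96, 0.97 and 1.33 in untreated and 0.94, 0.34 and 0.67 in blocked cultures at 9 h. At 26 h it measured 0.68, 1.05 and 0.71 in untreated and 0.03, -0.18 and -0.11 in blocked cultures. The groups did not overlap at either time, but at 9 h the highest blocked array lay just under the lowest untreated one. The averaged effect was -0.67 log2 (SE 0.12), 1.59-fold lower, with an adjusted p of 0.0122. The call held without any 1 array (0.0105 to 0.0405) and was lost without replicate 2 or 3 of every group (0.297 and 0.149). Ppp1r15b, the constitutive partner, differed by -0.10 log2 (interval -0.43 to 0.23, adjusted p 0.824).

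None of the 7 ATF4 targets was called in the averaged effect. Asparagine synthetase (Asns) differed by 0.00 log2 (interval -0.23 to 0.23), and the serine synthesis enzymes Psat1 and Phgdh by -0.16 and -0.28. Chac1, which degrades glutathione, differed by -0.22, and the pseudokinase Trib3 by -0.39 with a wide interval of -1.07 to 0.29. Ddit4, an inhibitor of mTORC1, had the one clearly positive value, 0.32 (adjusted p 0.183). Vldlr, a lipoprotein and reelin receptor, differed by -0.31 (adjusted p 0.139), and with the replicate block it and Phgdh passed (0.0342 and 0.0262). The median of the 7 was -0.22 log2.

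The sensors did not pass either. Ern1 was the dimmest of them: it measured -6.95, -7.08 and -5.81 in untreated and -6.69, -6.84 and -5.61 in blocked cultures at 9 h, and -6.90, -6.67 and -6.73 against -5.03, -7.15 and -6.74 at 26 h. With that spread and overlap the averaged difference of 0.34 log2 has an interval of -0.51 to 1.19. Eif2ak3 measured -2.09, -2.61 and -2.73 in untreated and -1.81, -2.22 and -2.47 in blocked cultures at 9 h, and -2.30, -2.41 and -2.68 against -2.22, -2.49 and -2.53 at 26 h. Its arrays overlapped at both times, and the difference was 0.18 log2 (interval -0.14 to 0.51). Atf6 differed by -0.07 log2 on average, with opposite values at the 2 times that are given further on.

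Xbp1 did not pass the test without a block. It measured 1.53, 1.39 and 1.34 in untreated and 1.23, 0.77 and 0.71 in blocked cultures at 9 h, so that every blocked array was lower. The 26 h values were 1.34, 1.05 and 0.67 against 1.08, 1.03 and 0.83, and the groups overlapped. The averaged difference was -0.28 log2 (interval -0.57 to 0.01), with an adjusted p of 0.319 without and 0.0484 with the replicate block.

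**Figure D2:**
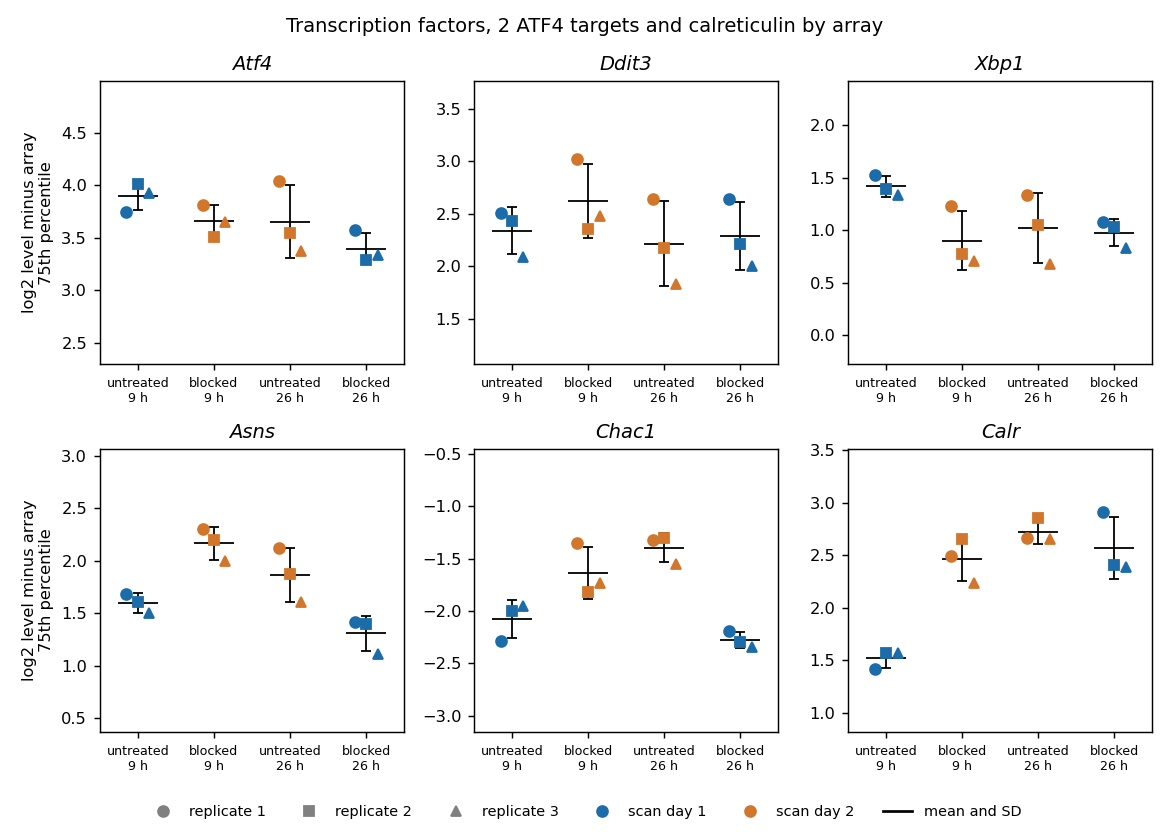
Level (log2 signal relative to the array's 75th percentile, vertical axis) of Atf4, Ddit3, Xbp1, Asns, Chac1 and Calr on each of the 12 arrays, by group on the horizontal axis; shapes mark replicate numbers, colours scan days, bars the mean and SD of 3 arrays. Replicate 1 of Ddit3 is the highest of its group 4 times, and Asns and Chac1 are highest in the groups scanned on day 2.

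Of the 13 measured ER chaperones and folding enzymes, 3 were lower and 0 higher, against 2.13% and 2.28% of all targets. With the replicate block 4 were lower and 1 higher, against 6.55% and 6.28%. Creld2, a secreted and ER-resident protein induced by ER stress, measured -0.32, -0.71 and -0.42 in untreated and -1.11, -1.41 and -1.14 in blocked cultures at 9 h. At 26 h it measured -0.86, -1.20 and -1.17 against -1.20, -1.63 and -1.33. The groups were apart at 9 h and overlapped narrowly at 26 h. The effect was -0.52 log2 (SE 0.11), 1.44-fold lower, with an adjusted p of 0.0263, and 0.000818 with the block.

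Sdf2l1, which works with the chaperone BiP to keep misfolded proteins soluble, measured 1.06, 0.58 and 0.81 in untreated and 0.48, 0.34 and 0.09 in blocked cultures at 9 h. Values of 1.27, 1.20 and 0.78 stood against 0.66, 0.19 and 0.37 at 26 h. The groups did not overlap at either time. The effect was -0.59 log2 (SE 0.13), 1.51-fold lower, with an adjusted p of 0.0302, and a second probe of the gene gave -0.59 log2 as well. With Atf3 and Ppp1r15a it made 3 of 33 genes whose blocked arrays all lay below the untreated ones at both times, against 1.45% of all targets.

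Pdia6, a protein disulfide isomerase, measured 2.59, 2.68 and 2.80 in untreated and 2.77, 2.66 and 2.70 in blocked cultures at 9 h, which overlap. At 26 h it measured 3.20, 3.0 and 3.0 against 2.39, 2.41 and 2.58, which do not. The averaged effect was -0.29 log2 (SE 0.07, adjusted p 0.0427), made of 0.02 at 9 h and -0.61 at 26 h. Creld2, Sdf2l1 and Pdia6 lost the call under median scaling (0.0728, 0.0935 and 0.0959) and in the authors' deposited matrix (0.0748, 0.109 and 0.0972). Leaving out 1 array ended the call of Pdia6 11 times of 12 (all but untreated 9 h replicate 1, up to 0.116), of Sdf2l1 8 times (all but untreated 9 h replicate 2, blocked 9 h replicate 1, untreated 26 h replicate 3 and blocked 26 h replicate 1, up to 0.0841) and of Creld2 5 times (untreated 9 h replicates 1 and 3, blocked 9 h replicate 2, blocked 26 h replicates 2 and 3, up to 0.0702).

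**Figure D3:**
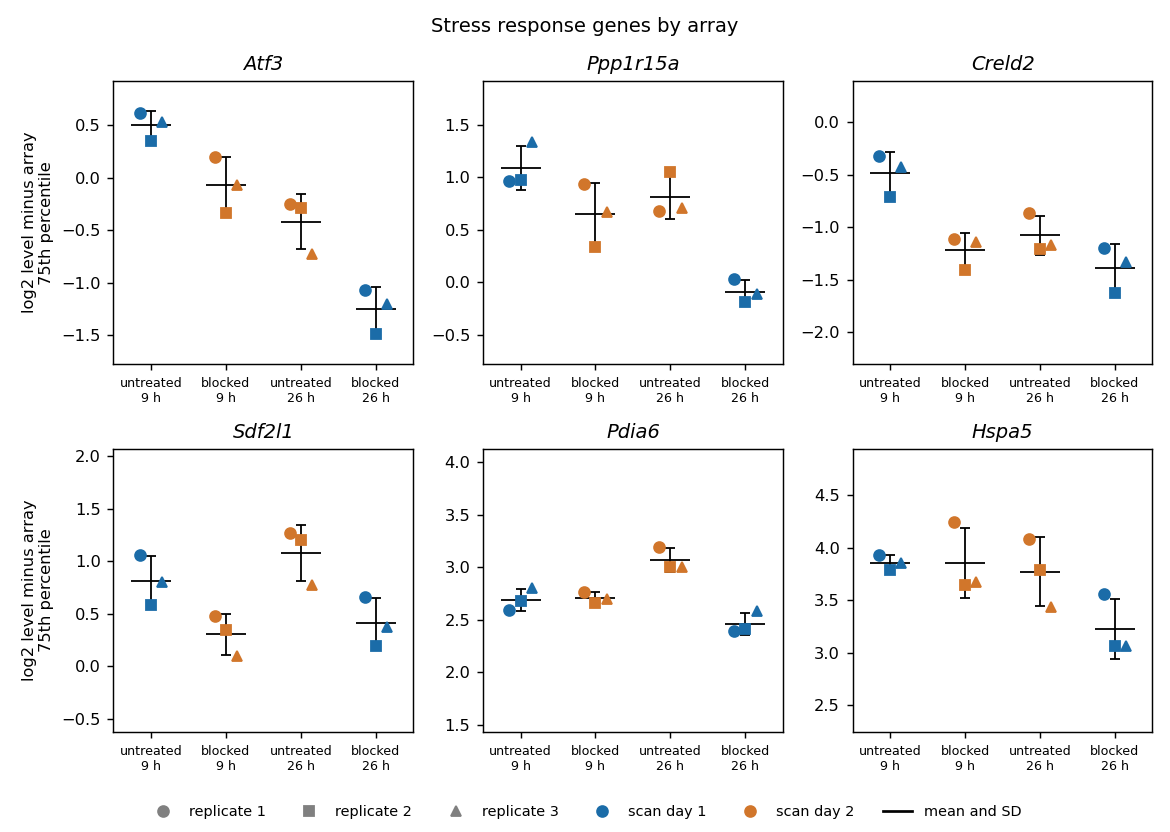
Level (log2 signal relative to the array's 75th percentile, vertical axis) of the 5 genes lower in the averaged effect and of Hspa5, by group; shapes mark replicate numbers, colours scan days, bars the mean and SD of 3 arrays. Blocked arrays of Atf3, Ppp1r15a and Sdf2l1 lie below the untreated arrays of their time at 9 h and at 26 h, and those of Pdia6 only at 26 h.

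The chaperones most often read as markers of ER stress were not called. Hspa5, which encodes BiP, measured 3.93, 3.79 and 3.85 in untreated and 4.24, 3.65 and 3.68 in blocked cultures at 9 h, with overlap. By 26 h the values were 4.09, 3.79 and 3.43 against 3.56, 3.06 and 3.06, again with overlap. The averaged difference was -0.27 log2 (interval -0.61 to 0.06, adjusted p 0.429).

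Hsp90b1 (GRP94) measured 2.38, 1.76 and 1.89 in untreated and 2.52, 2.16 and 2.04 in blocked cultures at 9 h. At 26 h it measured 2.44, 2.34 and 2.09 against 2.30, 1.70 and 1.71. The arrays overlapped at both times, and the difference was -0.08 log2 (interval -0.42 to 0.26); it turned to 0.01 without untreated 9 h replicate 1.

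The calcium-binding lectin chaperones had values above 0: Calr 0.39 (adjusted p 0.0867, and 0.0457 with the block) and Canx 0.07. Dnajc3, the eIF2alpha kinase inhibitor p58IPK, differed by -0.19 (0.198, and 0.0383 with the block). Hyou1, Dnajb9, Dnajb11, Pdia3 and Pdia4 lay between -0.20 and 0.12, and Herpud1, a membrane factor of ER-associated degradation, at -0.05. Sel1l and Syvn1, which together form the core of the degradation ligase, differed by -0.17 and 0.21, and Syvn1 passed with the block (0.0384). Of the 7 genes with a complete ERSE, 1 was called, Creld2, against 4.41% of all targets. The others ran from -0.28 (Xbp1) to 0.39 (Calr). With the block Xbp1 and Dnajc3 were called lower as well and Calr higher, against 6.55% and 6.28% of all targets.

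Each averaged effect is also the mean of 2 comparisons made within a scan day, blocked 26 h minus untreated 9 h on day 1 and blocked 9 h minus untreated 26 h on day 2. These mix treatment with time, in opposite senses. Sdf2l1 gave -0.41 and -0.78, and Pdia6 -0.23 and -0.36, below 0 on both days. Creld2 gave -0.90 and -0.14, Ppp1r15a -1.18 and -0.16, and Atf3 -1.75 and 0.35. Atf3, which also fell with time, thus kept the sign on day 1 only.

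At each time alone, 7 genes were called at 9 h, 3 lower and 4 higher, and 10 at 26 h, 9 lower and 1 higher. Of all targets, 21.0% were called at 9 h (9.34% lower, 11.7% higher) and 16.1% at 26 h (9.18% lower, 6.95% higher), so the 7 at 9 h are near the background share. In these contrasts blockade and scan day cannot be told apart. With the replicate block, which changed these counts, 9 were lower and 7 higher at 9 h, against 16.8% and 18.7% of all targets, and 14 were lower and 1 higher at 26 h, against 17.8% and 13.5%. All called targets then came to 35.5% at 9 h and 31.2% at 26 h. The 9 h count was 3 or 4 without untreated 9 h replicate 2 or 3 or blocked 9 h replicate 2, and the 26 h count 4 to 6 without blocked 9 h replicate 2, untreated 26 h replicate 1 or 2, or blocked 26 h replicate 2 or 3.

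At 9 h the lower genes were Creld2 (-0.74, adjusted p 0.00953), Atf6 (-0.62, 0.0127) and Atf3 (-0.57, 0.0474). The higher genes were Calr (0.94, 0.00322), Ddit4 (0.68, 0.0164), Asns (0.57, 0.0224) and Syvn1 (0.52, 0.0225). With the block, Xbp1, Psat1, Phgdh, Hyou1, Dnajc3 and Sdf2l1 were also lower (adjusted p 0.0077 to 0.0296) and Eif2ak3, Chac1 and Canx higher (0.0364 to 0.0432). Calr showed the widest gap, at 1.42, 1.57 and 1.57 in untreated and 2.49, 2.66 and 2.24 in blocked cultures. At 26 h its groups overlapped, with 2.67, 2.86 and 2.66 against 2.91, 2.41 and 2.39.

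At 26 h the lower genes covered both arms. From the ATF4 arm came Vldlr (-0.94, adjusted p 0.00345), Ppp1r15a (-0.90, 0.00787), Chac1 (-0.88, 0.00431), Atf3 (-0.83, 0.0132) and Asns (-0.56, 0.0294). From the ER arm came Sdf2l1 (-0.67, 0.0341), Pdia6 (-0.61, 0.00436), Pdia4 (-0.57, 0.0446) and Dnajb11, a BiP co-chaperone (-0.41, 0.0421). Atf6 was the higher one (0.47, 0.0465). With the block, Trib3 (0.00918), Hspa5 (0.0113), Creld2 (0.0202), Hsp90b1 (0.0241) and Cebpb (0.0437) were lower as well. Atf3 was called lower at both single times, and with the block Creld2 and Sdf2l1 were too.

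Several genes had effects of opposite sign at the 2 times. Asns measured 1.69, 1.61 and 1.5 in untreated and 2.30, 2.20 and 1.99 in blocked cultures at 9 h, and 2.12, 1.88 and 1.60 against 1.41, 1.4 and 1.11 at 26 h. The groups did not overlap at either time, and the higher group was the one scanned on day 2 in both. Vldlr at 26 h was also higher on the day 2 arrays, with -2.60, -2.59 and -2.76 against -3.40, -3.78 and -3.59. Atf6 went the other way, with -1.23, -0.72 and -0.72 against -1.49, -1.66 and -1.36 at 9 h, and -1.79, -1.80 and -1.76 against -1.26, -1.36 and -1.32 at 26 h. Of the 33 genes, 9 were called with a difference between the 2 effects below 0 and 1 with a difference above. Of all targets, 28.6% were called (15.9% below, 12.6% above). With the block 13 were called below 0 and 3 above, against 24.9% and 19.7% (44.6% in all). The difference between times and the difference between scan days are 1 contrast here and cannot be told apart.

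Between 9 h and 26 h, averaged over treatment, 5 of the 33 genes fell and 2 rose, while 12.6% of all targets were called (7.77% lower, 4.86% higher). Atf3 fell by 1.05 log2 (SE 0.13), 2.07-fold, with an adjusted p of 0.001, in untreated and blocked cultures alike: no 26 h array reached the 9 h arrays of its treatment. Ppp1r15a fell by 0.51 (0.0231) and Creld2 by 0.38, with an adjusted p just under 0.05. In untreated and blocked cultures the changes were -0.28 and -0.74 for Ppp1r15a, and -0.59 and -0.17 for Creld2. Dnajb9, the BiP co-chaperone ERdj4, measured -0.23, -0.67 and -0.85 in untreated and -0.31, -0.54 and -0.61 in blocked cultures at 9 h, and -0.92, -1.03 and -1.17 against -0.81, -0.85 and -1.01 at 26 h. All 26 h arrays of a treatment were lower than its 9 h arrays, and the change was -0.43 log2 (adjusted p 0.0314).

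Atf6 fell by 0.35 on average (adjusted p 0.0432), and its second probe gave -0.47. The fall was seen in untreated cultures (-0.90, adjusted p 0.00244) and not in blocked ones (0.19, adjusted p 0.358). Time and scan day cannot be told apart within 1 treatment. Calr rose by 0.66 (SE 0.11, 1.58-fold, 0.00516), mainly through the low untreated 9 h arrays, and Canx by 0.33 (0.046). Canx measured -2.48, -2.17 and -2.28 in untreated and -1.99, -1.93 and -1.79 in blocked cultures at 9 h, and -1.76, -1.66 and -1.52 against -1.72, -2.14 and -1.88 at 26 h, where the blocked groups of the 2 times overlap. The 7 ATF4 targets had 0 calls and a median of 0.02 log2. Of the sensors and factors without a call, Atf4 gave -0.25, Ddit3 -0.23, Hspa5 -0.36 (adjusted p 0.155), Xbp1 -0.16, Eif2ak3 -0.12, Hsp90b1 -0.03 and Ern1 -0.04.

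Atf3 and Calr kept the time call without any 1 array. Others lost it in part: Ppp1r15a without blocked 9 h replicate 3, untreated 26 h replicate 3 or blocked 26 h replicate 2 or 3 (up to 0.0585), and Dnajb9 without blocked 9 h replicate 1 or 2, untreated 26 h replicate 2 or 3 or any blocked 26 h array (up to 0.0743). Creld2 kept it in 3 of 12 cases (without untreated 9 h replicate 2, blocked 9 h replicate 2 or untreated 26 h replicate 1; otherwise up to 0.113). Atf6 kept it without untreated 9 h replicate 1 or blocked 9 h replicate 2, and Canx without untreated 9 h replicate 2 or blocked 26 h replicate 2 (otherwise up to 0.101 for both).

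The wider integrated stress response was read from 42 other genes, among them the other eIF2alpha kinases, aminoacyl-tRNA synthetases, amino acid transporters and one-carbon enzymes, of which 40 were measured. Averaged over both times, blockade lowered 2 and raised 0, against 2.13% and 2.28% of all targets (6 and 0 with the block, against 6.55% and 6.28%), with a median of -0.13 log2. Stc2, a secreted stanniocalcin induced by ER stress, measured -4.55, -3.79 and -4.53 in untreated and -4.55, -4.23 and -4.79 in blocked cultures at 9 h, and -4.64, -4.41 and -4.76 against -6.22, -6.15 and -6.37 at 26 h. The fall was thus seen at 26 h, and the averaged effect was -0.94 log2 (SE 0.15, 1.92-fold, adjusted p 0.00672). Shmt2, the mitochondrial serine hydroxymethyltransferase, measured 0.38, 0.59 and 0.50 in untreated and -0.40, -0.45 and -0.33 in blocked cultures at 26 h, but 0.37, 0.58 and 0.52 against 0.81, 0.71 and 0.79 at 9 h. Its averaged effect was -0.30 log2 (adjusted p 0.0302). At 26 h alone, blockade lowered 12 of the 40 and raised 0, against 9.18% and 6.95% of all targets. With the block 18 were lower and 2 higher, against 17.8% and 13.5%. At 9 h alone 3 were lower and 1 higher, against 9.34% and 11.7%. With the block these were 3 and 5, against 16.8% and 18.7%. Blockade and scan day cannot be told apart at a single time.

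With time, 14 of these 40 genes fell and 0 rose (35%, against 7.77% of all targets lower), with a median of -0.23 log2 against -0.02 over all targets. The genes named here for time were chosen after their values were seen: Stc2 (-1.02), Sesn2, a leucine-sensing inhibitor of mTORC1 (-0.70), Shmt2 (-0.58), the folate enzyme Mthfd2 (-0.50), the glycine transporter Slc6a9 (-0.43), and the tRNA synthetases Yars1 (-0.49), Cars1 (-0.47), Nars1 (-0.38), Eprs1 (-0.33), Tars1 (-0.31) and Mars1 (-0.24). The rest were Atf5, Cebpg and Aldh18a1, between -0.33 and -0.24. For Nars1, Atf5 and Cebpg all 26 h arrays lay below the 9 h arrays in both treatments, and for Tars1 in untreated cultures only. In each of the others this held in blocked cultures only, and the untreated arrays of the 2 times overlapped. Within 1 treatment, time and scan day cannot be told apart. The count of 14 became 7 under median scaling and 7 in the deposited matrix, and 7 to 12 without 1 array. Over all targets, 1404 and 1477 were lower with time under these 2 settings, against 1652. The count was 9 or fewer without untreated 9 h replicate 2 or 3, blocked 9 h replicate 1 or 3, untreated 26 h replicate 2 or any blocked 26 h array.

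Of 53 other genes of the unfolded protein response and ER translocation, 46 were measured. Averaged over both times, blockade lowered 1, the signal peptidase subunit Spcs3 (-0.61 log2, SE 0.14, adjusted p 0.0363), and raised 0. That is 2.17% lower, against 2.13% of all targets. With the block 4 were lower and 2 higher, against 6.55% and 6.28%. At 9 h alone 10 were lower and 6 higher, against 9.34% and 11.7% of all targets. With the block these were 13 and 6, against 16.8% and 18.7%. At 26 h alone 6 were lower and 4 higher, against 9.18% and 6.95%. With the block these were 10 and 5, against 17.8% and 13.5%. Blockade and scan day cannot be told apart at a single time. With time 1 fell (P4hb, protein disulfide isomerase, -0.35) and 3 rose (Sil1 0.38, Sec61b 0.29, Spcs2 0.27), 8.7% called against 12.6% of all targets.

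**Figure D4:**
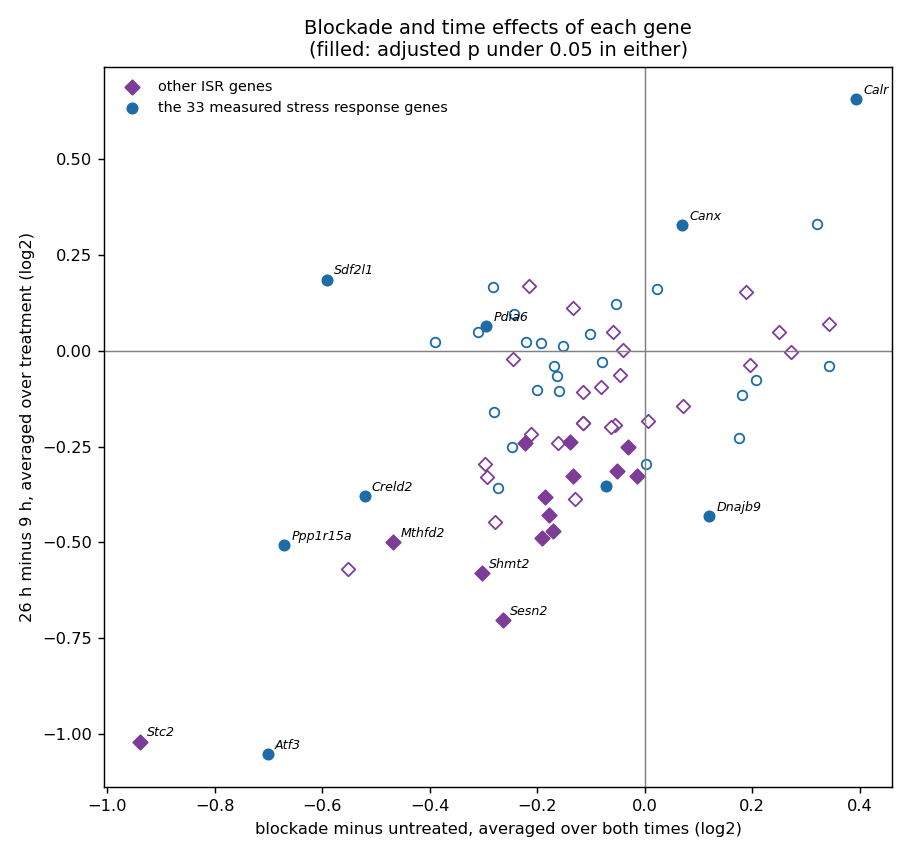
Averaged effect of blockade (horizontal, log2) against averaged effect of time (vertical, log2) for the 33 measured genes (circles) and 40 other genes of the integrated stress response (diamonds); filled points have an adjusted p under 0.05 in at least one of the contrasts. Stc2 and Atf3 lie at the lower left, at -0.94 and -1.02 and at -0.70 and -1.05, and Calr at the upper right.

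Cell type markers moved beside these effects. The excitatory neuron list had the largest averaged difference of the lists, 0.38 log2, with 3 of 6 markers called higher and values from -0.34 to 1.23, a wider range than that of the 5 called members. The interneuron list differed by 0.12, with 1 of 8 markers lower and 1 higher, from -0.61 to 1.03. Of all targets, 2.13% were lower and 2.28% higher in this effect. In the averaged blockade effect, all 8 astrocyte markers and all 8 oligodendrocyte lineage markers had values below 0, with medians of -0.17 and -0.28 log2. Of them 0 and 1 were called, and 0 and 4 with the replicate block, against 6.55% of all targets lower. The block also gave 1 lower excitatory marker, 2 lower interneuron markers, and 1 lower and 1 higher meningeal and vascular marker. The mean level of the astrocyte list ran from 2.16 to 2.52 in untreated and from 2.05 to 2.40 in blocked cultures at 9 h, and from 2.22 to 2.75 and from 2.07 to 2.51 at 26 h. The oligodendrocyte list ran from -0.97 to -0.27 and from -1.23 to -0.60 at 9 h, and from -0.72 to 0.22 and from -1.05 to -0.15 at 26 h. The part of glial and neuronal marker shifts in the falls of Atf3, Ppp1r15a, Creld2, Sdf2l1 and Pdia6 was not tested. On average over both times the neuron list differed by 0.11, the microglia list by 0.12 and the meningeal and vascular list by -0.09. Each had 0 calls in that effect without the block. The mean level of the neuron list ran from 0.69 to 1.00 in untreated and from 1.16 to 1.30 in blocked cultures at 9 h. At 26 h it ran from 1.07 to 1.22 and from 0.95 to 1.00. These groups did not overlap at either time, and the higher group was the one scanned on day 2 in both. The part of this shift in the effects at a single time was not tested. With time, all 8 oligodendrocyte markers had values above 0 (median 0.33, 1 called) and all 8 interneuron markers values below 0 (median -0.21, 0 called). The shares of all targets were 4.86% higher and 7.77% lower. With the block 4 and 3 were called, against 11.5% of all targets higher and 14.9% lower. The part of these markers in the time effects was not tested.

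How the variation of each gene divided is shown by its sum of squares over the 12 arrays. Among 4 sources, with the remainder left out, the largest share was taken by the replicate number in 13 genes and by blockade in 5. Scan day (the same contrast as blockade by time) took it in 11 and time in 4. Replicate number has more levels than each other source and takes a larger share even without an effect. The sources are therefore not ranked like for like. The remainder was larger than each of the 4 in Ern1 (68.6%), Ppp1r15b (47.2%), Pdia3 (36.9%), Atf4 (33.2%) and Cebpb (32.9%). For replicate number, scan day, blockade and time these are 39.4%, 33.3%, 15.2% and 12.1% of the members. Over all genes, counted in the same way, they are 36.4%, 35.4%, 9.73% and 18.5%. Blockade took 65.0% in Sdf2l1, 50.7% in Ppp1r15a and 48.2% in Creld2. Time took 63.0% in Atf3, with 28% for blockade. The median share of blockade was 15.6% over the 33 genes and 4.68% over all genes.

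**Figure D5:**
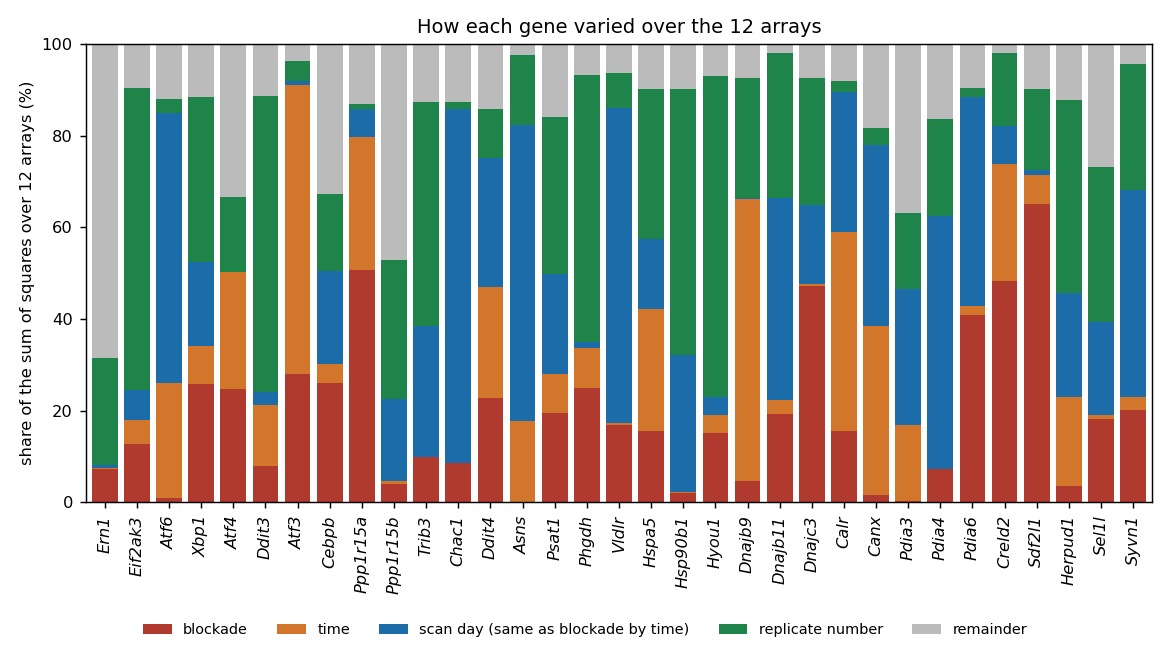
Share of the sum of squares over 12 arrays (vertical axis, %) taken by blockade, time, scan day, replicate number and the remainder, for each of the 33 measured genes. Blockade is the tallest segment in Sdf2l1 at 65.0%, time in Atf3 at 63.0%, and replicate number in Hyou1 at 70.1%.

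The replicate number took over 50% in 5 genes: Hyou1 (70.1%), Eif2ak3 (65.8%), Ddit3 (64.6%), Phgdh (58.3%) and Hsp90b1 (57.9%). That is 15.2% of the members, against 18.3% of all genes. Replicate 1 was the highest array in all 4 groups for 14 of 33 members (42.4%), against 6.41% of all genes, a pattern described after its values were seen. The 14 were Asns, Atf3, Creld2, Ddit3, Dnajb11, Dnajb9, Eif2ak3, Herpud1, Hsp90b1, Hspa5, Hyou1, Sdf2l1, Syvn1 and Xbp1, and Phgdh was the one that was lowest in replicate 1 throughout. Under other scalings and filters the count ran from 11 to 17, and the share of all genes from 5.16% to 15.1%. Replicate 1 also had lower non-neuronal marker levels than replicates 2 and 3, by 0.34 log2 for astrocytes, 0.66 for the oligodendrocyte lineage and 1.68 for the meningeal and vascular list and 0.19 for microglia, and a higher interneuron list, by 0.38. The part of these shifts in the pattern was not tested. Within a scan day each replicate number lay on its own slide, so culture and slide cannot be told apart in it.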

How the data were processed

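Total RNA (200 ng per culture) was labelled with Cy3 for 12 single-colour Agilent rat arrays, 1 per culture, per the labels. Images were read with Feature Extraction 10.5.1.1, per the file headers, and the deposited intensity (processed signal) is background-subtracted, with no scaling across arrays. In a second table deposited by the authors, of log2 values, each column is log2 of the processed signal minus a constant (slope 1.000), and the rule behind the constants is not given in the sources used here (column medians 7.57 to 7.75). Flags for background, saturation and outliers come from the deposited output.

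Values used here are log2 of the processed signal minus the array's 75th percentile. Control spots were left out, 3751 outlier spot values were dropped and repeated spots averaged. Kept probes were well above background on every array of 1 group or more (24034 of 30367 probes); 18004 probes matched a symbol by RefSeq transcript, and each gene took its brightest kept probe. The number of arrays limits the precision: the median SE was 0.120 log2 for averaged effects and 0.170 at 1 time.

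All 12 arrays entered 1 limma model (3.58.1, R 4.3.3; lmFit, eBayes) with 4 group means; tests were two-sided with Benjamini-Hochberg adjustment over all 21250 targets and a threshold of 0.05. In data simulated for the averaged blockade effect, 35% of changes of 0.5 log2 and 80% of changes of 1 log2 were recovered, and 6.50% of calls were false. The simulated noise was independent between arrays, without slide, day or replicate pattern, and 100 of 21200 genes were changed at each size. The real arrays of a slide, which share a replicate number, correlated at 0.504, so these rates need not hold for them. Deviations from the group means of untreated and blocked arrays with equal number and time correlated at 0.177 to 0.657, over 0.1, so blocked values stand beside blockade results whose call they change. Across times the lowest correlation was -0.04, and the labels do not tie the numbers across times. Alternatives were median scaling, quantile normalization, normexp (offset 50, on median signals), the deposited matrix, other filters, the mean over probes, outliers kept, replicate and slide blocks, and arrays left out.

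The genes, lists and tests were chosen with earlier results of these data known. Values in every array are given for genes called in the averaged blockade or time effect and for Hspa5, Hsp90b1, Xbp1, Ern1, Eif2ak3, Atf4 and Ddit3; of the other stress genes, those called in the averaged blockade effect were to be named. Coordinates of the array's older design build were not used.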

Additional observations from a re-analysis of the deposited data

Results flagged for a closer look

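For 10 of the 33 genes the effect of blockade at 26 h differed from that at 9 h by limma's test of the difference itself, with adjusted p under 0.05; 28.6% of all targets did so, so the count is near the background share. The difference, 26 h minus 9 h, was -1.32 log2 for Chac1, -1.26 for Vldlr, -1.13 for Asns and -0.71 for Ddit4 among the ATF4 targets. It was -1.1 for Calr, -0.83 for Pdia4, -0.67 for Canx and -0.62 for Pdia6 among the ER chaperones, and -0.62 for Syvn1 of ER-associated degradation. Atf6 had a positive difference, 1.09. With the replicate block 13 genes were called with a negative and 3 with a positive difference, against 24.9% and 19.7% of all targets. The block added Trib3 (adjusted p 0.00973), Hspa5 (0.0325), Hsp90b1 (0.0103) and Dnajb11 (0.00329) below 0, and Xbp1 (0.0368) and Creld2 (0.0149) above. Asns, Chac1 and Vldlr were thus higher under blockade at 9 h and lower at 26 h in their fitted values, although Chac1 and Vldlr did not pass at 9 h (0.44 and 0.32 log2, adjusted p 0.0534 and 0.152; with the block 0.0432 and 0.0531). The arrays of each time were scanned on different days in opposite order, so this difference and the difference between scan days cannot be told apart. Groups of 3 arrays were too small for a check of single outlying arrays.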

How the results depend on the processing

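Of the 19 effects examined singly, 13 to 19 kept their side of the threshold under each of 11 alternatives, and none changed sign there; the cause of the changes was not tested. The count of genes lowered by blockade (5) was 2 under median scaling, 2 in the deposited matrix, 9 with the replicate block and 8 with slide as a random block. Lower calls over all targets were 375, 333, 1392 and 1374 in that order, against 453. The count of raised genes (0) was 2 with each of these blocks, while higher calls over all targets were 1334 and 1603, against 484. At 9 h the 7 calls became 16 with the replicate block, while the share of all targets called went from 21.0% to 35.5%. At 26 h the 10 calls became 6 under median scaling, 6 in the deposited matrix and 6 without the filter on dim probes. Over all targets, the lower and higher calls were then 1527 and 1384, 1587 and 1144, and 1469 and 1111, against 1951 and 1476. The fit without the filter tested 26896 targets. The 7 time calls became 4 in the deposited matrix, 4 without the filter and 10 with the replicate block (7 lower, 3 higher, adding Hspa5, Asns and Ddit4). Over all targets, the lower and higher time calls were then 1477 and 795, 1316 and 736, and 3168 and 2434, against 1652 and 1033. The 14 other stress genes lower with time became 7 under median scaling, 7 in the deposited matrix, 9 without the filter, 22 with slide as a random block and 20 with the replicate block. Lower time calls over all targets were 1404, 1477, 1316, 3458 and 3168 in that order, against 1652. With arrays or whole replicate numbers left out, the counts ran from 0 to 5 (lowered), 0 to 1 (raised), 0 to 8 (9 h), 0 to 11 (26 h), 1 to 7 (time) and 1 to 12 (other stress genes, time). Leaving out whole numbers, an alternative chosen after seeing the data, leaves 2 arrays a group and, for blockade over all targets, 228 lower and 177 higher calls without replicate 1, 23 and 8 without replicate 2, and 162 and 196 without replicate 3, against 453 and 484. With arrays left out, the blockade effect of Hsp90b1 ran from -0.1773 to 0.014 log2 (positive without untreated 9 h replicate 1), and that of Ern1 turned to -0.0142 without replicate 1 of every group. Xbp1 passed with slide as a fixed block (0.036) or a random block (0.0447) and with the replicate block (0.0484). Slide as a fixed block cannot be fitted for 9 h or 26 h alone. Ern1 and Trib3, at low signal with wide spread, limit what their probes can show.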
